A study of Arabidopsis thaliana with 26 samples.

Results

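The comparison described here set cold-treated plants of the Arabidopsis thaliana line sf2 directly against cold-treated wild type, using the 2 sf2 arrays and the 2 wild-type arrays whose source names give line and cold treatment, 4 of the 26 arrays of the series. It compares levels reached after 24 h at 4 °C, not responses to cold. All plants were in the col-0 background. The wild type carried the stock code N1092, and sf2 was an EMS mutant, a line made with a chemical mutagen that changes single bases at many places. Plants grew on 0.5x Murashige-Skoog medium with 0.8% agar in a growth room at 21 °C, 100% humidity and continuous light. Cold plants spent their 24 h at 4 °C under 100 microEinsteins. RNA came from all aerial tissue at growth stage 1.14, with 18 plants pooled. The untreated sf2 and wild-type plants and the cold-treated EMS lines sf6 and sf3, each on 2 arrays, served for comparison. No label says whether the 2 arrays of a group came from separately grown plants. The p-values therefore reflect only how far the arrays of a group lie apart, and that distance may be technical.

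Cold acclimation is the process by which plants held at low, non-freezing temperature become more tolerant of freezing. Transcription factors of the CBF family switch on cold-regulated (COR) genes, many of which encode dehydrins and other late embryogenesis abundant (LEA) proteins that protect membranes and proteins as cells lose water to ice. The series title names the sfr2 mutation, and sfr stands for sensitive to freezing. SFR2 is known as an enzyme of the outer chloroplast envelope that remodels galactolipids when freezing damages membranes, and plants without it are injured by freezing even after acclimation. No probe set of the array annotation used here names SFR2, so the mutated gene could not be checked in these arrays, and an EMS change need not alter a transcript's level.

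Each array gives a scaled intensity per probe set, a group of short probes for a transcript. Values were compared as log2(intensity + 16), and a difference of 1 on that scale is close to 2-fold except for dim probe sets, whose fold is understated. The limma test used 20 arrays of 10 groups for its estimate of spread: untreated and cold-treated wild type, sf6, sf3 and sf2, and wild type and sf6 whose cut shoots had dried in moving air for 2 h. A probe set is called where its Benjamini-Hochberg adjusted p was under 0.05. The 26 nuclear photosynthesis genes that mark green tissue summed to 24636 and 23744 intensity units in cold wild type and to 23646 and 23685 in cold sf2. The 3 root genes with a named probe set, led by PYK10, summed to 986.3 and 926.2 in wild type and to 895.3 and 909.3 in sf2. AMS, from the list of flower and pollen markers, lay at 0.5 and 2.5 in wild type and 0.9 and 1.3 in sf2. Over all probe sets tested, the median absolute log2 difference between cold sf2 and cold wild type was 0.12, against 0.148 between the 2 cold wild-type arrays and 0.116 between the 2 cold sf2 arrays. The wild type itself moved by a median of 0.323 between control and cold. The 2 sf2 arrays correlated with each other at 0.9894, while each wild-type array was closer to an array of another line (0.9861 with an sf3 array, 0.9863 with an sf6 array) than to its own replicate (0.9838). In scaled intensity, the brightest probe set read 3420.8 and 3250.9 in cold sf2 against 4049 and 4324.8 in cold wild type. The average background, which is in scanner units and not scaled, was 87.55 and 86.1 against 76.27 and 80.16.

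Few transcripts distinguished cold sf2 from cold wild type. Of 17059 probe sets tested, 20 (0.117%) were called, 15 (0.0879%) higher in sf2 and 5 (0.0293%) lower. The unadjusted p was under 0.05 for 1891 probe sets (11.1%), of which 1141 (6.69%) were higher and 750 (4.4%) lower. In all 20 called probe sets the 2 sf2 arrays lay wholly above or below the 2 wild-type arrays, as they did in 43.2% of all probe sets tested. Of the 20, 12 name 1 gene, 7 have no gene in the annotation used here and 1 names several. At least 2-fold changes were fitted for 8 of them, 7 higher and 1 lower, where a change of that size with arrays apart was fitted for 30 probe sets (0.176%) on the high side and 7 (0.041%) on the low side. The number of calls rests on the individual arrays: it was 94 without the wild-type array of replicate 1, 0 without that of replicate 2 (1388 at an unadjusted p under 0.05, limma), 0 without the sf2 array of replicate 1 (1235 unadjusted) and 1 without the sf2 array of replicate 2. With a spread estimated from the 4 compared arrays alone, 1 probe set was called.

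**Figure D1:**
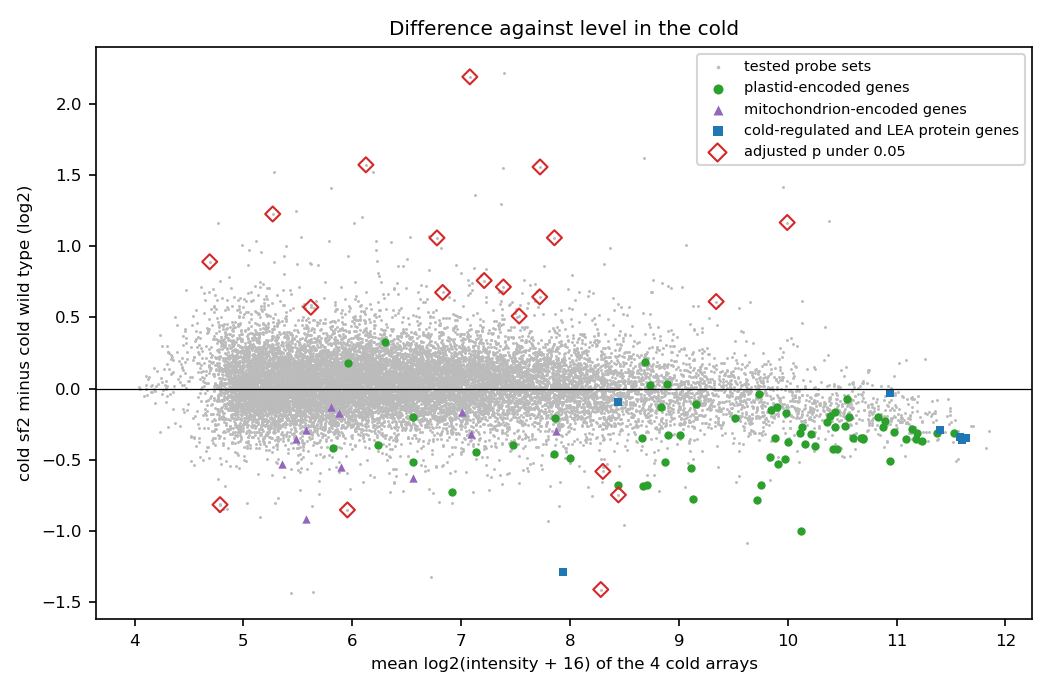
Difference between cold sf2 and cold wild type (y axis, log2) against the mean log2(intensity + 16) of the 4 cold arrays (x axis) for each probe set tested, with the 20 called probe sets as open diamonds and 3 gene lists in colour. The called probe sets spread over most of the intensity range, 15 above and 5 below 0. At the bright end most of the cloud, the COR genes and most plastid-encoded genes lie below 0.

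Among the called probe sets, the 3 largest fitted rises on the log2(intensity + 16) scale were those of AT1G19960, 248169_at and AT5G03350. These transcripts also read higher in untreated sf2 than in untreated wild type. Over all probe sets tested the largest fitted rise was 2.22, in a probe set that was not called. AT1G19960 read 81.9 and 24.9 in cold wild type and 333.4 and 223.5 in cold sf2. Every sf2 array stood above every wild-type array, and the wild-type pair was itself far apart. The ratio of mean intensities was 5.21, and the fitted difference was 2.19 ± 0.36 (log2, SE, adjusted p = 0.0339). In the other cold mutant lines the same probe set read 144.9 and 80 (sf6) and 53.5 and 92.7 (sf3), all below sf2. Probe set 248169_at, which has no gene in the annotation, rose by 1.57 ± 0.22 (adjusted p = 0.0175), from 30.2 and 19.4 in wild type to 93.2 and 116.8 in sf2. Its levels in cold sf6 (44.4 and 43.1) and sf3 (34.6 and 33) were again below both sf2 arrays. AT5G03350 rose by 1.56 ± 0.25 (adjusted p = 0.0264), from 151.9 and 74.5 to 392.3 and 307.1. Cold sf6 and sf3 gave 127.7 to 169.1 for it, close to the higher wild-type array.

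In untreated plants, which share no array with the cold comparison, 248169_at was higher in sf2 by 1.39 ± 0.22 (adjusted p = 0.0315), with 75.1 and 158.8 against 32.2 and 31.9 in wild type. It was the 1 of the 20 that was called in both temperatures, in the same direction. The background in untreated plants was 19 calls of 17059 (0.111%), 17 of them (0.0997%) higher in sf2 and 2 (0.0117%) lower. AT1G19960 read 355.9 and 528.3 in untreated sf2 against 198.2 and 144.9 in wild type, a difference of 1.28 ± 0.36 that did not pass (adjusted p = 0.197). AT5G03350 read 609 and 982.6 against 308.9 and 389.9, a difference of 1.12 ± 0.25 (adjusted p = 0.0946). For these 3 transcripts the sf2 arrays were above the wild-type arrays at both temperatures, without overlap, and in untreated plants 19.8% of all probe sets tested had sf2 above wild type in this way. Untreated sf6 also lay above untreated wild type for each of them. It read 427.6 and 459.8 for AT1G19960, 62.5 and 77.1 for 248169_at and 635.6 and 643.2 for AT5G03350, within the range of untreated sf2 for AT1G19960 and AT5G03350.

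**Figure D2:**
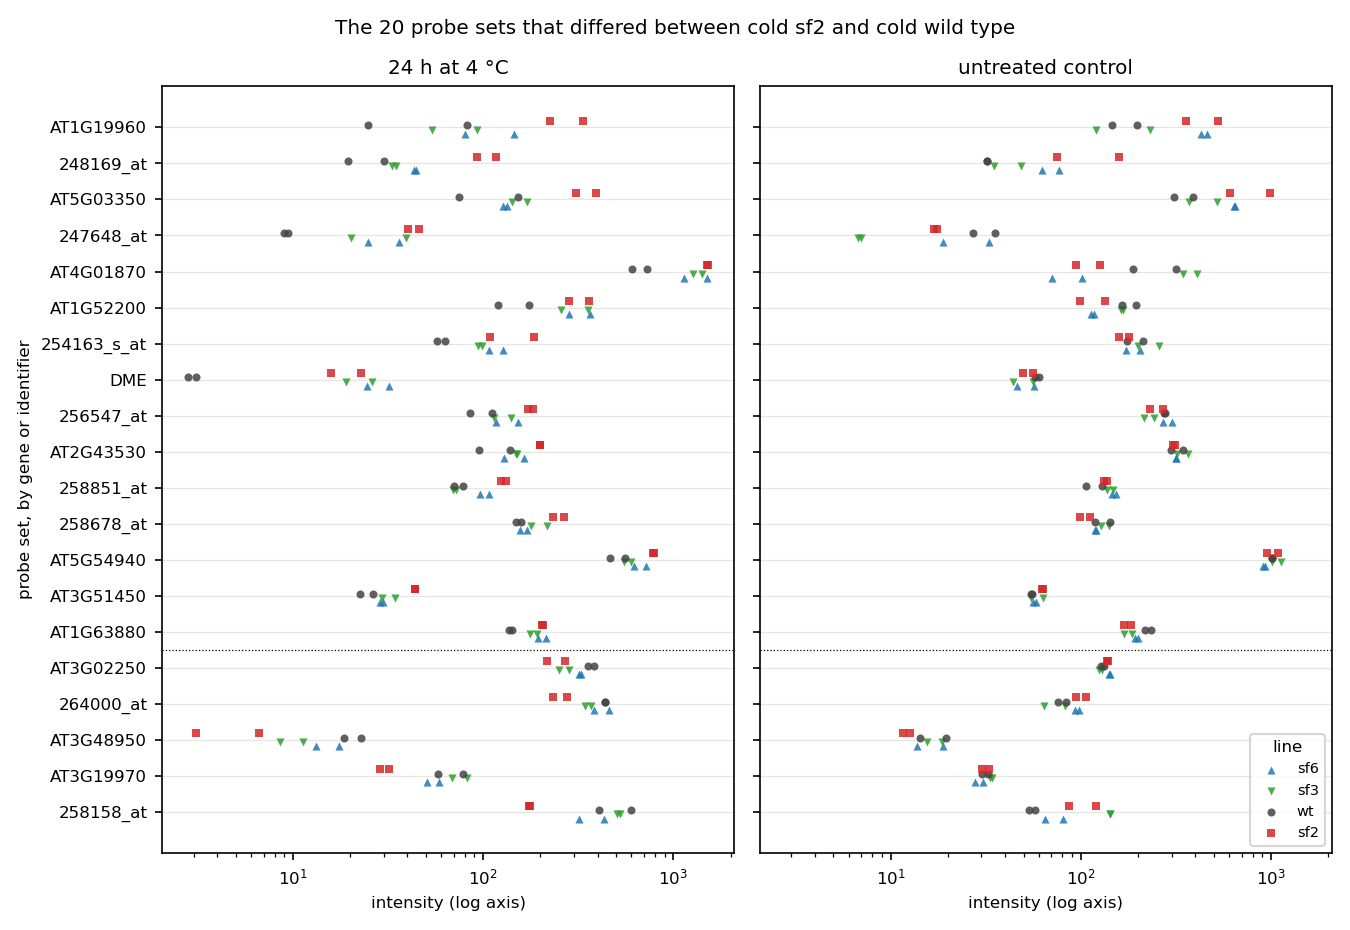
Intensity (x axis, log scale) of the 20 called probe sets in each array of wild type, sf2, sf6 and sf3, after 24 h at 4 °C (left) and in untreated plants (right). The dotted line separates the 15 probe sets that were higher in cold sf2 from the 5 that were lower. For DME, AT4G01870 and AT1G52200 the 2 cold wild-type arrays lie apart from all 6 mutant arrays, and for 258158_at and AT3G19970 the 2 cold sf2 arrays lie apart from the other 6.

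A second kind of rise was one in which cold wild type, not cold sf2, stood apart from the other lines. In 11 of the 20 called probe sets the 2 wild-type arrays lay beyond all 6 cold arrays of sf2, sf6 and sf3, as in 7.15% of all probe sets tested. In 14 the 2 sf2 arrays lay beyond all 6 cold arrays of the other lines, as in 11.7% of all probe sets, and a probe set can meet both conditions. The sf2 and wild-type arrays already lay apart in all 20, so these counts describe the called probe sets and are not read against those shares. DME encodes DEMETER, a DNA glycosylase that removes methylated cytosine from DNA. Its probe set 250836_at read 2.8 and 3.1 in cold wild type and 15.8 and 22.9 in cold sf2, while cold sf6 gave 31.9 and 24.4 and cold sf3 25.9 and 18.9. It rose by 0.89 ± 0.14 in sf2 (adjusted p = 0.0264), and against the same wild-type arrays sf6 was higher by 1.22 (adjusted p = 0.00119) and sf3 by 1.01 (adjusted p = 0.00891). In untreated plants it read 57.7 and 60 in wild type and 49.5 and 55.7 in sf2. The ratio of mean intensities in the cold was 6.56, above that of any rise described before it. This probe set was dim, and its fitted difference depended on the pseudocount: DME rose by 2.34 with a pseudocount of 1 and stood at 0.31 with 64, where it did not pass (adjusted p = 0.104). The other probe sets for DME did not follow it fully. One read 11.2 and 5.8 in cold wild type and 18.6 and 22.2 in cold sf2 (difference 0.58, adjusted p = 0.196), and the third read 26.6 and 35.9 against 28.2 and 21.4 (difference -0.21, adjusted p = 0.612).

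AT4G01870 was the brightest riser of this kind. It read 605.7 and 730.8 in cold wild type and 1526.4 and 1503.9 in cold sf2, a rise of 1.17 ± 0.2 (adjusted p = 0.0342), with 1136.7 to 1506 in cold sf6 and sf3. The wild-type arrays were the lowest of the 8. AT1G52200 rose by 1.06 ± 0.19 (adjusted p = 0.0342), from 174.8 and 119 to 282 and 360.5, and sf6 and sf3 lay between 256.1 and 364.4. AT1G63880 rose by 0.51 ± 0.09 (adjusted p = 0.0346), from 136.7 and 141.8 to 203 and 207.2, with 177.3 to 214.3 in the other mutant lines. For these genes all 3 mutant lines were on the same side of the same 2 wild-type arrays, so their differences from wild type are not independent of each other.

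Another 3 named genes rose, each by less than 2-fold. AT2G43530 rose by 0.71 ± 0.13 (adjusted p = 0.0498), from 138.1 and 94.9 in wild type to 199.3 and 197.8 in sf2. AT5G54940 rose by 0.61 ± 0.11 (adjusted p = 0.0342), from 463.2 and 559.6 to 779.6 and 793.9. AT3G51450 rose by 0.57 ± 0.1 (adjusted p = 0.0397), from 26.2 and 22.5 to 43.8 and 44. In each of the 3 the sf2 arrays were the highest of the 8 cold arrays. All 3 read higher in every untreated array than in any cold array of any of the 4 lines, so the cold sf2 level lay nearer to the untreated level than the cold wild-type level did.

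Of the 5 called probe sets that were lower in cold sf2, 4 were raised by cold in sf6 and sf3. Probe set 258158_at, with no gene in the annotation, fell by 1.41 ± 0.18 on the log2 scale (adjusted p = 0.00701), from 404.8 and 598.3 in cold wild type to 173.2 and 176.3 in cold sf2. Cold sf6 and sf3 read 319.7 to 521.2, so sf2 alone was low. The untreated levels were 53.4 and 57.5 in wild type and 86.8 and 119.5 in sf2. AT3G19970 fell by 0.85 ± 0.13 (adjusted p = 0.0238), from 57.9 and 78.1 to 28.5 and 31.8. In untreated plants of both lines it read 30.3 to 32.8, the level at which cold sf2 also stood, whereas cold sf6 and sf3 had 50.5 to 82.5. AT3G02250 fell by 0.58 ± 0.1 (adjusted p = 0.0342), from 384.4 and 356.7 to 216.9 and 269.7, and untreated plants read 127.6 to 138.1. Cold sf6 gave 319.4 and 325.2 for it and cold sf3 282.5 and 250.7, so an sf3 array lay between the sf2 arrays. AT3G48950, a dim probe set, fell by 0.82 ± 0.14 (adjusted p = 0.0342), from 18.6 and 22.7 to 3.1 and 6.6. It was the 1 of the 5 whose cold response in sf6 and sf3 did not pass (-0.2, adjusted p = 0.106), and untreated plants read 14.3 and 19.5 in wild type and 12.6 and 11.6 in sf2.

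Compared with the mean of cold sf6 and cold sf3, which uses the same cold sf2 arrays but no wild-type array, 6 probe sets were called (0.0352%), 2 higher in sf2 (0.0117%) and 4 lower (0.0234%). The values for the transcripts above were -1.25 ± 0.15 for 258158_at (adjusted p = 0.00266), -0.8 ± 0.11 for AT3G19970 (adjusted p = 0.00813) and 1.14 ± 0.19 for 248169_at (adjusted p = 0.0497). The other probe set called higher, 261639_at, stood at 1.95 ± 0.15 (adjusted p = 6.17e-06). It read 573.6 and 557 in cold sf2 and 547.3 and 598.4 in cold wild type. Cold sf6 and sf3 read 118.8 to 148.8 for it, so those lines were low and sf2 stood with wild type. AT5G03350 stood at 1.2 ± 0.21 (adjusted p = 0.0708) and AT1G19960 at 1.48 ± 0.31 (adjusted p = 0.163). By contrast DME stood at -0.22, AT1G52200 at 0.03, AT1G63880 at 0.07 and AT4G01870 at 0.19 in the same comparison, with adjusted p from 0.59 to 0.972. Leaving out the sf2 array of replicate 1 left 1 call in it, and leaving out the sf6 array of replicate 1 gave 20.

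Whether the sf2 difference in the cold departed from that in untreated plants was tested as the cold response of sf2 minus that of wild type, a contrast that shares its cold arrays with the comparison above. It gave 22 calls (0.129%), 9 higher (0.0528%) and 13 lower (0.0762%), and between 3 and 54 with single arrays left out. AT4G01870 had the largest positive value among the 20 called probe sets, 2.22 ± 0.29 (adjusted p = 0.00371). It read 188.3 and 315.1 in untreated wild type and 93.9 and 126.5 in untreated sf2, so sf2 was the lower line before cold and the higher line after it. AT1G52200 crossed in the same way, from 165.1 and 194 (wild type) and 98.4 and 133.8 (sf2) when untreated, with a difference of responses of 1.64 ± 0.27 (adjusted p = 0.029). The untreated sf2 differences themselves did not pass (adjusted p = 0.0573 for AT4G01870 and 0.274 for AT1G52200). The sf6 line crossed too, with untreated readings of 101.4 and 70.2 for AT4G01870 and 112.9 and 116.7 for AT1G52200. Untreated sf3 read 343.1 and 408.1 for AT4G01870 and 163 and 166.8 for AT1G52200. AT1G63880 gave a difference of responses of 0.84 ± 0.13 (adjusted p = 0.0209). For 258158_at the value was -2.14 ± 0.25 (adjusted p = 0.00283), since untreated sf2 was above untreated wild type and cold sf2 below cold wild type. DME (1.02, adjusted p = 0.0561) and AT3G19970 (-0.86, adjusted p = 0.0896) did not pass.

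**Figure D3:**
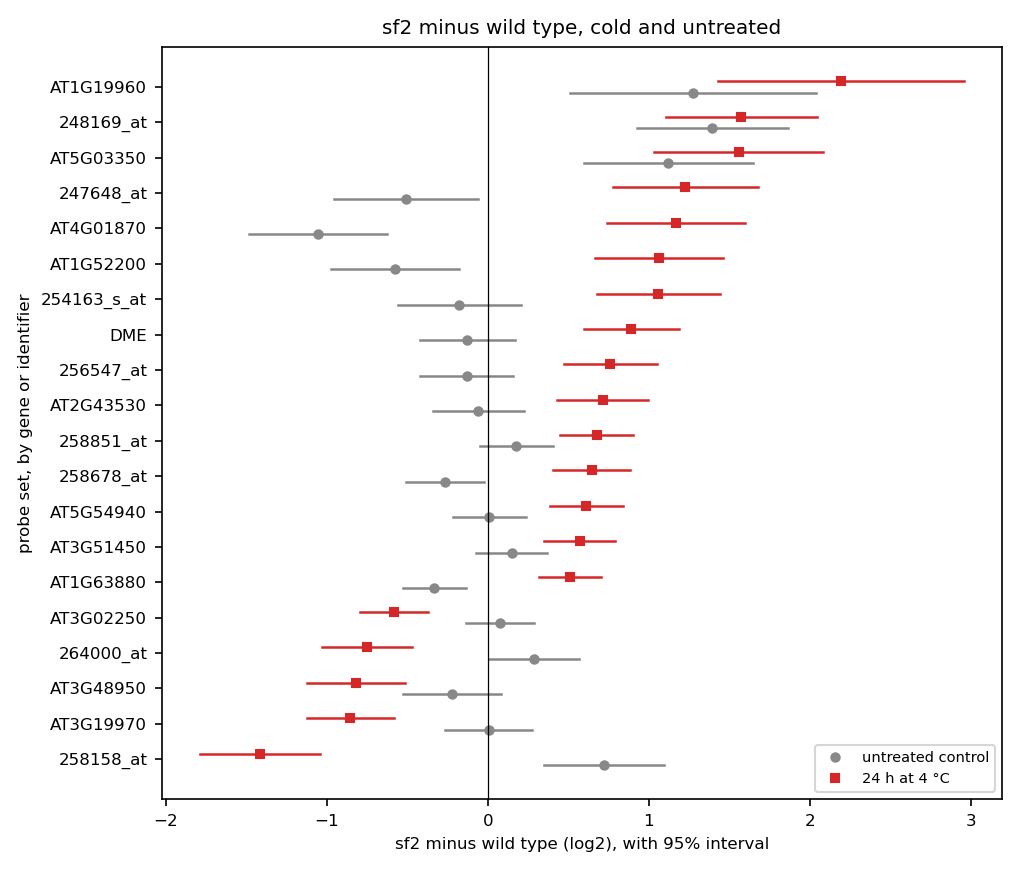
Difference between sf2 and wild type (x axis, log2, with its 95% interval from limma) for the 20 called probe sets after 24 h at 4 °C (squares) and in untreated plants (circles). AT1G19960, 248169_at and AT5G03350 lie to the right of 0 at both temperatures, while AT4G01870 and AT1G52200 lie to the left of 0 in untreated plants and 258158_at to the right.

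Cold responses were common among the called transcripts, as they were on the whole array. Measured in sf6 and sf3, whose arrays are not part of the comparison, 17 of the 20 had a cold response with an adjusted p under 0.05, as had 9716 of all 17059 probe sets tested (57.0%). In 13 of these 17 the sf2 difference was opposite in sign to the response: 9 were lowered by cold and higher in sf2, and 4 were raised by cold and lower in sf2. The same opposition of sign held for 62.4% of all 9716 probe sets that responded in sf6 and sf3. Cold had raised 861 probe sets at least 2-fold in those lines, and for these the median sf2 difference was -0.097 and 30.3% were above 0. Relative to the cold wild-type mean, the median probe set of this group stood at -0.114 and -0.084 in the sf2 arrays and at -0.078 and 0.078 in the wild-type arrays. For the 897 lowered by as much, the median difference was 0.148, with 76.1% above 0, and the arrays stood at 0.154 and 0.147 (sf2) against 0.072 and -0.072 (wild type). By this measure the sf2 arrays lay just below the lower wild-type array for the raised group and beyond the higher one for the lowered group. Both shifts were on the side of the untreated level. By median log2 level the raised group stood at 7.989 and 8.053 in sf2 and 8.009 and 8.15 in wild type, so the pairs overlapped. In untreated plants the median differences between sf2 and wild type were 0.011 for the raised group and -0.032 for the lowered group. The cold-raised median was -0.149 with median scaling and -0.081 with quantile normalization, and the cold-lowered median was 0.109 and 0.118.

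COR and LEA genes were measured lower in cold sf2, without passing the test. Of 10 listed genes with a named probe set, 7 were bright enough to be tested, and all 7 lay below 0, with a median of -0.34 against 0.02 over all probe sets tested. None was called, and 2 were lower at an unadjusted p under 0.05, against 4.4% lower among all probe sets tested. LEA4-5, a late embryogenesis abundant protein gene, read 399.6 and 336.3 in cold wild type and 113.3 and 173.3 in cold sf2, a difference of -1.29 ± 0.32 (adjusted p = 0.136). The lines were apart here, but cold sf6 (212.1 and 127.7) and sf3 (212.6 and 628.2) spanned a wide range. COR47, which encodes a dehydrin, read 3473.4 and 3701.3 against 2623.4 and 3013.8 (-0.35 ± 0.16, adjusted p = 0.424). COR15A, whose product protects chloroplast membranes, read 3301.3 and 3561.1 against 2794.8 and 2620.9 (-0.34 ± 0.16, adjusted p = 0.466). The dehydrin gene LTI30 read 3389.6 and 3611.2 against 2648 and 2790.8 (-0.36 ± 0.18, adjusted p = 0.478). In untreated plants of both lines COR15A and LTI30 lay between 48.3 and 71.6. Cold raised COR15A by 5.67 in wild type (adjusted p = 1.97e-13) and by 5.26 in sf2 (adjusted p = 6.84e-13) on the log2 scale, and LTI30 by 5.48 (adjusted p = 9.32e-13) and 5.02 (adjusted p = 3.37e-12). The cold responses of LEA4-5 were 4.44 in wild type (adjusted p = 8.94e-09) and 2.99 in sf2 (adjusted p = 1.22e-06), and their difference of -1.45 ± 0.46 did not pass (adjusted p = 0.241).

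These COR values stand at the top of the intensity scale, where the sf2 arrays read lower in general. In the brightest 1% of probe sets, leaving out plastid-encoded ones, the median difference was -0.21, and 95.6% of 158 lay below 0. With quantile normalization, which gives all arrays the same distribution, the differences were -0.04 for COR47, -0.01 for COR15A and -0.03 for LTI30, and the list median was -0.04. LEA4-5, which is not in that range, kept -1.28 (adjusted p = 0.16). The part of the lower array maxima in the list's difference was not tested.

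Plastid-encoded transcripts were the broadest group on the low side. The chloroplast genome encodes core subunits of the photosystems, the cytochrome b6f complex, the ATP synthase, the NADH dehydrogenase-like (NDH) complex, the plastid RNA polymerase and part of the plastid ribosome. All 69 named genes were tested, none was called, 64 lay below 0 and the median was -0.35. The unadjusted p was under 0.05 for 28, all lower, against 4.4% lower among all probe sets tested. In 54 of the 69 both sf2 arrays were below both wild-type arrays, against 19.1% of all probe sets, and in 1 they were above. These shares of the whole array are not matched for intensity. Of the 69, 56 lay in the brightest 10%, where sf2 read lower in general. In that range both sf2 arrays were lower for 45 of the 56, against 750 of the other 1650 probe sets. The unadjusted p was under 0.05 on the low side for 26 of the 56 and for 223 of the 1650. The median gene of the 69 stood at -0.37 and -0.28 in the sf2 arrays relative to the cold wild-type mean, and at -0.09 and 0.09 in the wild-type arrays. Without the wild-type array of replicate 2 the median was -0.22, and without that of replicate 1 it was -0.41.

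The median of every complex was below 0. It was -0.35 for 5 photosystem I genes, -0.35 for 15 photosystem II genes, -0.25 for 6 cytochrome b6f genes and -0.34 for 6 ATP synthase genes. It was -0.41 for 10 NDH genes, -0.29 for 4 RNA polymerase genes and -0.2 for 15 ribosomal protein genes. Without the wild-type array of replicate 2 these last 3 medians were -0.22, -0.08 and -0.07. The widest gap was that of psaA, which encodes a reaction-centre protein of photosystem I. It read 1504.7 and 1621.5 in cold wild type and 540.8 and 1093.8 in cold sf2 (-1.01 ± 0.27, adjusted p = 0.164). The sf2 arrays were far from each other for this gene, and an sf3 array at 1085.5 lay between them. The photosystem II reaction-centre gene psbD read 1126.5 and 1053.9 against 487.9 and 804.8 (-0.78 ± 0.21, adjusted p = 0.169). The cytochrome b559 subunit gene psbF read 1605.1 and 1614.2 against 1142.3 and 1249 (-0.43 ± 0.12, adjusted p = 0.181). The ribosomal protein gene rps4 had the lowest adjusted p of the list, 0.129, with 2276.6 and 2398.1 in wild type, 1556.2 and 1712.9 in sf2 and a difference of -0.51 ± 0.12.

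**Figure D4:**
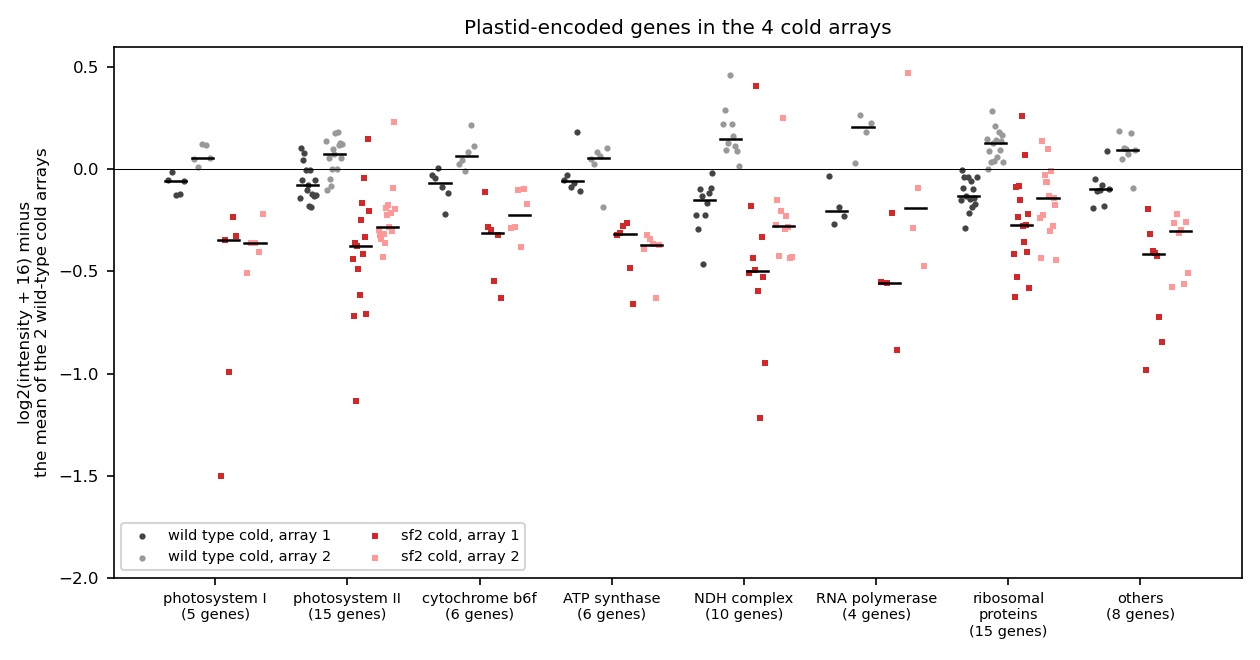
Level of each plastid-encoded gene in each of the 4 cold arrays (y axis, log2(intensity + 16) minus the mean of the 2 cold wild-type arrays), grouped by complex (x axis), with a black bar at the median of each array. The medians of both sf2 arrays lie below those of both wild-type arrays in 7 of the 8 groups, and in the RNA polymerase group the sf2 median of -0.19 in array 2 lies just above the wild-type median of -0.21 in array 1.

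Summed over the 69 genes, plastid-encoded intensity was 75211 and 84790 in cold wild type and 61073 and 65537 in cold sf2. Cold sf6 (70539 and 95304) and sf3 (80725 and 64804) varied widely between their own arrays, and an sf3 array lay between the sf2 arrays. Untreated wild type summed to 89938 and 80746 and untreated sf2 to 78811 and 77051, and the median difference between these lines was -0.14. For the 13 plastid-encoded genes below the brightest 10% the median was -0.42 (-0.23 without the sf2 array of replicate 1, -0.27 without the wild-type array of replicate 2, and -0.36 between the untreated lines), and for those within it -0.32, against -0.08 for the other 1650 probe sets of that range. With quantile normalization the list median was -0.21, and 7 of the 69 lay above 0. The 26 nuclear photosynthesis genes, many of them as bright, had a median of 0.02. In bulk tissue, fewer cells of a type and less RNA per cell cannot be told apart. The labelled cRNA was primed from oligo(dT). How far that priming captured plastid-encoded and mitochondrion-encoded transcripts was not tested, so their readings need not follow their full levels.

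Mitochondrion-encoded transcripts read lower as well. Of 15 named genes 11 were tested, none was called, all 11 lay below 0 and the median was -0.32. The unadjusted p was under 0.05 for 5, all lower, against 4.4% lower among all probe sets tested. Between the untreated lines the list median was -0.21. The cytochrome c oxidase gene cox2 read 39.3 and 61.9 in cold wild type and 13.9 and 24.3 in cold sf2 (-0.92 ± 0.21, adjusted p = 0.0985). Untreated sf2 was also low for it, at 13 and 15.4 against 26.6 and 25.5. The cytochrome c biogenesis gene ccb452 (-0.63 ± 0.18, adjusted p = 0.183) and the respiratory complex I genes nad1 (-0.55 ± 0.17, adjusted p = 0.237) and nad6 (-0.36 ± 0.12, adjusted p = 0.293) followed. These probe sets were dim, none was in the brightest 10%, and the wild-type pair was itself wide: the median gene stood at -0.28 and 0.28 in the wild-type arrays and at -0.45 and -0.22 in the sf2 arrays. With quantile normalization the median was -0.35.

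Over all probe sets tested, 54.7% lay above 0 and 6.69% were higher at an unadjusted p under 0.05. Among the other lists, none of the defence, autophagy and antioxidant genes was called. Of 19 defence genes tested, 14 lay above 0 (median 0.2), and 4 had an unadjusted p under 0.05. The defence median against wild type was 0.14 in cold sf6 and 0.1 in cold sf3. For cold sf2 minus the mean of those lines it was 0.08. SGT1A, a co-chaperone of immune receptors, read 71.5 and 52.3 in wild type and 106.4 and 117.5 in sf2 (0.73 ± 0.17, adjusted p = 0.125). The defensin gene PDF1.2 read 122.1 and 64.2 against 158.7 and 368.1 (1.3 ± 0.59, adjusted p = 0.431), with the sf2 arrays far apart. In untreated plants PDF1.2 read lower in sf2, at 49.6 and 80 against 355.3 and 170.5 (-1.73 ± 0.59, adjusted p = 0.314). Of 18 autophagy and starvation genes, 14 lay above 0 (median 0.15) and 6 had an unadjusted p under 0.05. ATG8 proteins coat the membranes of forming autophagosomes. ATG8F read 183.1 and 159.7 in wild type and 224.5 and 211.7 in sf2 (0.32 ± 0.09, adjusted p = 0.202), and ATG8D and ATG8E stood at 0.32 and 0.48. MCCA, a subunit of an enzyme of leucine breakdown, read 4.2 and 4.6 against 14.6 and 18.7, far below its untreated levels of 91.1 to 329.1. Of 27 antioxidant and glutathione transferase genes, 19 lay above 0 (median 0.07) and 5 had an unadjusted p under 0.05. Similar counts above 0 were found for heat shock proteins and chaperones (15 of 20, median 0.06), tetrapyrrole and chlorophyll genes (9 of 12, median 0.06) and calcium signalling genes (8 of 11, median 0.08). The tau-class glutathione transferase genes GSTU23 (32.2 and 30.3 against 48.3 and 50.3, difference 0.47 ± 0.15) and GSTU18 (70.3 and 65 against 83.6 and 89.8, difference 0.3 ± 0.08) were apart by array but did not pass (adjusted p = 0.244 and 0.192).

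The photosynthesis and sugar lists were mixed. Among the nuclear photosynthesis genes, 15 of 26 lay above 0, and the 5 with an unadjusted p under 0.05 were all higher. TRXF2, a thioredoxin that activates enzymes of carbon fixation in the light, read 190.8 and 176 in cold wild type and 289.5 and 264.9 in cold sf2 (0.56 ± 0.13, adjusted p = 0.129). LHCB4.2, a minor antenna protein of photosystem II, read 687.9 and 525.2 against 865.1 and 934.7 (0.57 ± 0.21, adjusted p = 0.312), and PAM68, an assembly factor of that photosystem, stood at 0.46 ± 0.18. In untreated plants of both lines all 3 read 207.4 or above, a floor pooled over the 3 genes. Of 25 starch and sugar genes, 10 lay above 0 (median -0.07). An unadjusted p under 0.05 was found for 3, all lower, against 4.4% lower among all probe sets tested. The list median against wild type was -0.16 in cold sf6 and -0.02 in cold sf3. For cold sf2 minus the mean of those lines it was 0.01. APL3, a large subunit of ADP-glucose pyrophosphorylase in starch synthesis, read 569.1 and 418.9 against 301.2 and 196 (-0.96 ± 0.26, adjusted p = 0.168). Its cold levels in sf6 (364.7 and 192.4) and sf3 (328.1 and 521.3) covered nearly the whole span of both lines. The tonoplast sugar transporter gene TMT2 stood at -0.35 ± 0.13 (adjusted p = 0.321).

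Flavonoid genes leaned low, with 2 of 9 above 0 and a median of -0.1. Against the same wild-type arrays the list median was -0.12 in cold sf6 and 0.02 in cold sf3. For cold sf2 minus the mean of those lines it was 0.01. CHIL, a chalcone isomerase-like protein gene, read 895.9 and 932.6 in wild type and 670.4 and 519.5 in sf2 (-0.62 ± 0.17, adjusted p = 0.188), and UGT78D2, a flavonoid glucosyltransferase gene, stood at -0.23 ± 0.11 (adjusted p = 0.427). Cold raised CHIL by 2.06 in wild type (adjusted p = 4.96e-08) and by 1.27 in sf2 (adjusted p = 1.66e-05), a difference of responses of -0.79 ± 0.25 that did not pass (adjusted p = 0.23). Genes of membrane lipid and fatty acid metabolism, the field in which SFR2 acts, were balanced around 0. Of 18 named genes 16 were tested, 8 lay above 0, the median was -0.01 and the values ran from -0.18 to 0.34. LCB2, a subunit of the enzyme that starts sphingolipid synthesis, had the widest gap of this list, 94.2 and 76.2 against 105.3 and 118.8 (0.34, 95% interval 0.02 to 0.66, adjusted p = 0.412). Across all 32 lists, 31 held no call, and the 1 called member was DME, in the list of chromatin and histone genes, where 24 genes were tested and 12 lay above 0.

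**Figure D5:**
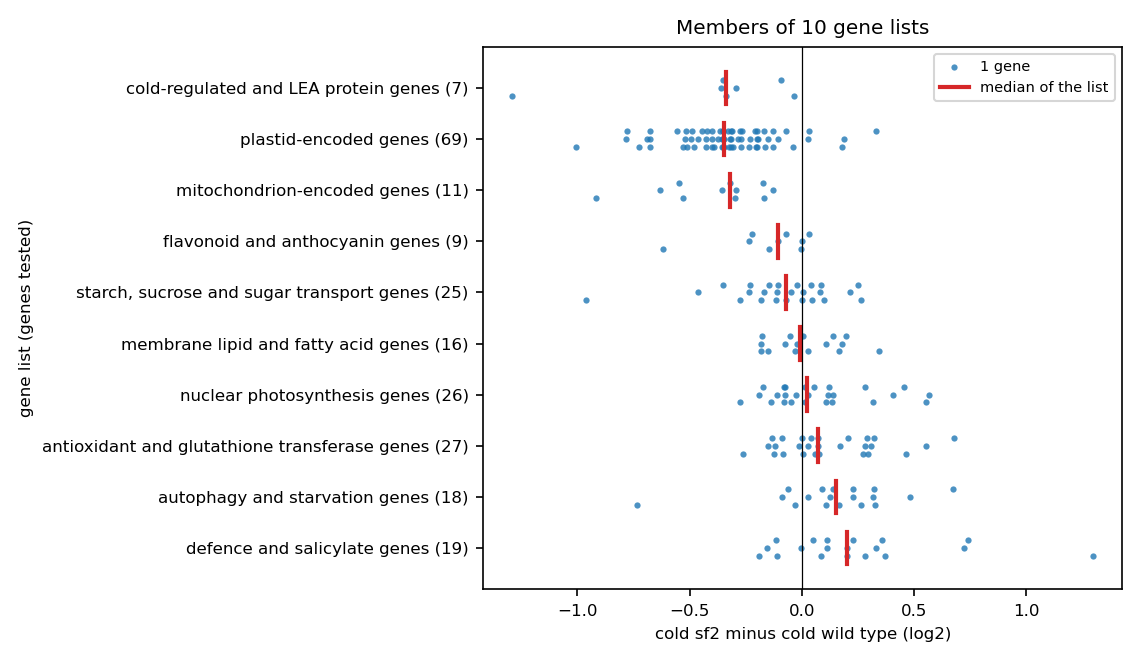
Difference between cold sf2 and cold wild type (x axis, log2) for each tested member of 10 gene lists (y axis, number of genes tested in brackets), with a red bar at the median of each list. The cold-regulated, plastid-encoded and mitochondrion-encoded lists have medians of -0.34, -0.35 and -0.32, and the defence and autophagy lists of 0.2 and 0.15.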

How the data were processed

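Biotin-labelled cRNA, primed from oligo(dT) on total RNA, was hybridised to Affymetrix ATH1 arrays, per the labels' protocols. The authors deposited 1 linear intensity per probe set and array. Each array's 2% trimmed mean is 100.01, so every array was scaled to the same mean. The method that summarised probes is not given in the sources used here. Of 22810 probe sets, 64 controls were left out, and gene names came from the platform annotation and RefSeq (TAIR10.1): 13513 probe sets name 1 gene, 503 several and 8794 none.

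Samples were grouped by source name into groups of 2, and precision is limited by this number. R 4.3.3 with limma 3.58.1 (lmFit, eBayes with an intensity trend, two-sided) was fitted to log2(intensity + 16) of 20 arrays in 10 groups, without a replicate block, after leaving out probe sets below the 25th percentile of mean intensity. This left 17059 probe sets and 10 residual degrees of freedom, to which limma's prior added 6.58. The contrasts were cold sf2 minus cold wild type, cold sf2 minus the mean of cold sf6 and sf3, control sf2 minus control wild type, and the difference of cold responses. The fit was tested on simulated data.

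Genes were named where they passed with arrays apart, at most 12 in each direction, and in a described list the 4 or fewer members of lowest p. A gene with several probe sets was read from its brightest. Called probe sets without a gene were named where they were among the 3 largest called changes of a direction. Other unnamed probe sets in the closing section, and cold-induced groups, were chosen after their values were seen. The members, gene lists and tests were chosen with earlier results of these data known. Alternatives tried were pseudocounts of 1 and 64, other filters, quantile normalization, median scaling, a replicate block, other sets of arrays, array weights, no intensity trend and leaving out arrays.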

Additional observations from a re-analysis of the deposited data

Results flagged for a closer look

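For 7 of the 20 called probe sets the difference between sf2 and wild type in the cold departed from the difference between the untreated lines, by limma's test of the difference of cold responses at an adjusted p under 0.05. The values on the log2 scale (cold response of sf2 minus that of wild type) were 2.223 for AT4G01870, 1.735 for 247648_at, 1.636 for AT1G52200, 0.9099 for 258678_at, 0.8413 for AT1G63880, -1.035 for 264000_at and -2.139 for 258158_at. Probe set 247648_at read 9 and 9.4 in cold wild type and 40.1 and 46.1 in cold sf2, and 27.2 and 35.4 against 16.8 and 17.5 in untreated plants. Probe set 258678_at read 148.5 and 157.4 against 232.3 and 264.9 in the cold and 119.1 and 141.7 against 99.2 and 112.1 when untreated. Probe set 264000_at read 436.6 and 434.8 against 232.9 and 274.5 in the cold and 75.4 and 83.1 against 106.6 and 93.9 when untreated. In all 7 the sign of the sf2 difference was opposite at the 2 temperatures. The test shares its cold arrays with the comparison that called these probe sets, and groups of 2 arrays allow no check for a stray array.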

How the results depend on the processing

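The count of 20 probe sets called between cold sf2 and cold wild type was 33 with a pseudocount of 1. It was 12 without the filter on dim probe sets, 13 with quantile normalization and 41 with all 26 arrays. It was 10 without the intensity trend and 1 with the compared groups alone. Both arrays titled repeat 1, from untreated wild type and dried sf6, lie outside the cold comparison, and without them the count was 3. It was 14 with median scaling, 8 of them higher, against 15 of 20. With a replicate block it was 19. Replicate numbers were not shown to pair the samples: the replicate differences of cold wild type and cold sf2 correlated at 0.053. With single arrays left out it ran from 0 to 94. For cold sf2 against cold sf6 and sf3, 6 calls became 1 to 20 with single arrays left out, and 4 with the replicate block. The 19 calls between the untreated lines became 31 with a pseudocount of 64, 3 without the filter, 29 with all 26 arrays, 84 with array weights, 5 without the trend, 59 without both repeat 1 arrays, 0 with the compared groups alone (limma, 1812 at an unadjusted p under 0.05), 15 with the replicate block and 0 to 91 with single arrays left out. The 22 calls for the difference of responses became 8 without the filter, 35 with median scaling, 13 without the trend, 8 with the compared groups alone, 24 with the replicate block and 3 to 54 with single arrays left out. Of the 20 called probe sets, 20 still passed with a pseudocount of 1 and with array weights, and 17 with the replicate block and with all 26 arrays. With a pseudocount of 64, 16 passed, and with quantile normalization or median scaling 13 did. Only 10 passed without the trend, 8 without the filter on dim probe sets and 1 with the compared groups alone. The lipid gene GPDHp, at 0.17, ran from -0.046, a reversal without the wild-type array of replicate 2, to 0.38 with other single arrays left out. The cause of these changes was not tested. Probe sets near background carry little signal, and fold changes of any size there are understated.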

Other observations

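All 3 named genes that fell in cold sf2, AT3G19970, AT3G48950 and AT3G02250, carry locus numbers of chromosome 3, as does SFR2, and so does 1 of the 9 named genes that rose, AT3G51450. Chromosome 3 holds 20.2% of the tested probe sets with 1 gene. This was seen after the values and was not tested.

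Outside the calls, the cold wild-type arrays were far apart for 2 of the genes with the widest gaps between the lines. AT3G22240 read 1664 and 449.7 in wild type against 2069.2 and 1914.7 in sf2 (1.18, adjusted p = 0.233), and AT4G17470 read 30 and 2.3 against 55.8 and 50.4 (1.25, adjusted p = 0.382). In contrast AT5G59670 read 3.4 and 1 in wild type and 28.4 and 21.4 in sf2 (1.17, adjusted p = 0.121), with 2.3 to 10.5 in cold sf6 and sf3 and 14.8 and 40.5 in untreated sf2. AT4G33905 read 315.7 and 266.6 against 155.3 and 134.9 (-0.93, adjusted p = 0.116), below all 4 cold arrays of sf6 and sf3.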
